A study of Mus musculus with 3 samples.

Results

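Accessible regions that crowd together along the chromosome were examined in the mouse dentate gyrus, a region of the hippocampus built mainly of granule neurons. Peaks of the 3 deposited lists were joined into 1 region wherever peaks of different lists overlapped by at least 1 bp, and an autosomal region with a peak in all 3 lists was called shared. A cluster was a run of 4 or more shared regions in which every gap, from 1 end to the next start, was under 12.5 kb. The members were therefore chosen by peak position and by presence in all 3 lists. The rule set no limit on score or width, but a wider region shortens the gap to its neighbour. By this rule 1644 of 35482 shared autosomal regions (4.63%) lay in 358 clusters, and 33838 lay outside. The series as a whole held 84529 joined regions. Cluster number, size and spacing follow from the rule and are given as a description, without a test.

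The samples were 3 C57BL/6 mice, adult and 8 weeks old, each giving its own ATAC-seq library from the microdissected dentate gyrus. The group is labelled E24, a name that the labels leave unexplained, in a series on how neuronal activation alters open chromatin. No further group was analysed here, so the values describe these animals and compare no conditions. The lists held 62912, 68699 and 48769 peaks in replicates 1, 2 and 3. The files give no read depth, and a region absent from a list may be open there below the reach of peak calling.

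ATAC-seq marks DNA that the transposase Tn5 can reach. Such DNA is found at promoters, where transcription starts, and at enhancers, short elements that bind transcription factors and act on promoters at a distance. Regulatory elements are often unevenly placed: genes that define a cell type can be flanked by groups of enhancers, and gene families in tandem, such as those for histones, place many promoters close to each other. No gene annotation of the build mm9 was used, so which of these kinds a cluster holds was not determined, and clusters are named by their mm9 position.

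Most clusters were small. Of the 358, 254 (70.9%) held exactly 4 regions, 54 held 5, 28 held 6 and 12 held 7. The remaining 10 clusters held 8 or more regions, 106 in all. The number of runs fell steeply with their length: 22087 shared regions (62.2%) were lone, 4401 runs held 2 regions and 983 held 3. Just outside the rule, the 2949 regions in runs of 3 had median peak widths of 629, 659 and 421 bp in replicates 1, 2 and 3. Just inside, the 1016 regions in clusters of 4 had 632, 688 and 436 bp.

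A cluster spanned a median of 26.1 kb, with quartiles of 21.4 and 31.8 kb and a range of 7.25 to 109.9 kb. Together the spans covered 9.89 Mb, or 0.410% of the autosomal length between the outermost regions. The shared regions filled a median of 14.5% of the span, from 6.69% to 45.5%. Clusters thus consisted mostly of sequence outside shared regions, with short accessible stretches in between. The 1286 gaps inside clusters had a median of 6618 bp, against 34.8 kb for all gaps between neighbouring shared regions. Of the inner gaps, 98 (7.62%) were under 1 kb, and the shortest was 14 bp. In 49 clusters the largest gap came within 500 bp of the limit, while 9 gaps beside clusters exceeded the limit by less than 500 bp.

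**Figure D1:**
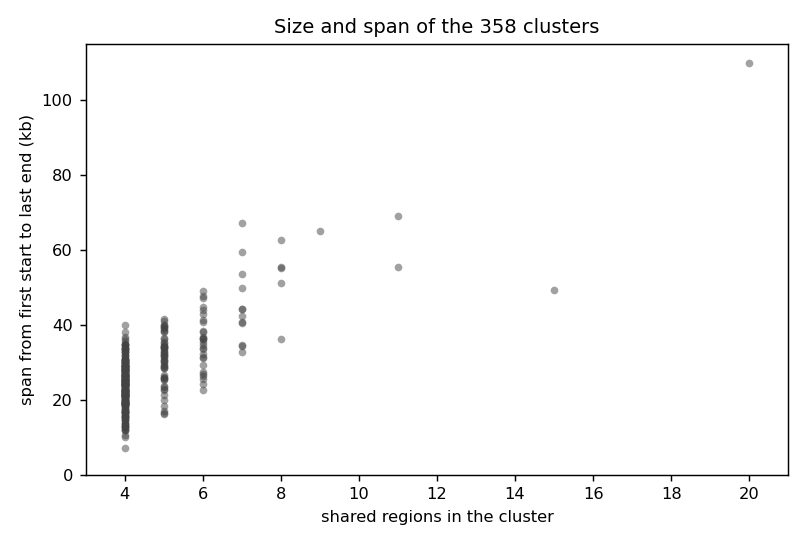
Each point is 1 of the 358 clusters. The horizontal axis gives its number of shared regions and the vertical axis its span in kb from the first start to the last end. Most points lie at 4 regions and below 40 kb, and the cluster of 20 regions stands alone at 109.9 kb.

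The cluster count rests strongly on replicate 3, the animal with the shortest peak list. With regions held by replicates 1 and 2 alone, the same rule gave 1094 clusters, which held 10.3% of the regions shared by these 2 lists. Without replicate 1 the rule gave 458 clusters, and without replicate 2 it gave 418. The gap limit also set the count, at 202 clusters with a limit of 10000 bp and 573 with 15000 bp.

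The cluster with the most regions lay on chromosome 13, at chr13:23580356-23690220, and held 20 shared regions in 109.9 kb. Replicate 1 had 21 peaks in it, replicate 2 had 22 and replicate 3 had 23. To compare regions across lists, the score rank is used here, the percentile of the peak's score among all peaks of its own list, from 0 to 100. Its 20 regions had a median score rank of 80.8 in replicate 1, 80.1 in replicate 2 and 74.9 in replicate 3. The strongest region, chr13:23653401-23655570 (2170 bp), had scores of 934, 1155 and 620 in replicates 1, 2 and 3, which are ranks of 97.7, 98.1 and 97.5. It ranked highest of the 20 in each of the 3 animals. The widest was chr13:23621741-23624546, at 2806 bp, with ranks of 96.0, 88.0 and 96.9. At the other end, chr13:23592617-23593047 (431 bp) ranked at 7.84 in replicate 1, 61.3 in replicate 2 and 32.2 in replicate 3, so the animals differed widely at this weak region. Strong and weak regions thus stood side by side in this cluster.

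A neighbouring cluster, chr13:23503858-23559215, held 11 regions in 55.4 kb and ended 21140 bp before the largest began. Its strongest region, chr13:23537018-23539010, had scores of 725, 771 and 374, and its ranks of 95.6, 94.2 and 92.2 were the highest of the cluster in every animal. Its narrow neighbour chr13:23516293-23516852 (560 bp) ranked at 32.5, 50.2 and 60.7. Further up the chromosome, chr13:21307029-21372033 held 9 regions in 65.0 kb and chr13:22107442-22143611 held 8 in 36.2 kb. In the former, chr13:21332645-21333199 ranked at 81.9 in replicate 1 but at 31.4 and 35.5 in replicates 2 and 3.

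Between 21 and 24 Mb, chromosome 13 carried 7 clusters with 63 regions, which is 41.4% of all clustered regions of that chromosome. This window was chosen after its values were seen, and 110 shared regions lie in it. Its clustered regions had median score ranks of 87.8, 86.4 and 82.9 in replicates 1, 2 and 3 and median peak widths of 1172, 1126 and 806 bp. Over all clustered regions the medians were 67.8, 69.5 and 58.3 for rank and 649, 714 and 438 bp for width. Chromosome 13 is known to carry the major histone gene cluster of the mouse, but the position of those genes relative to these clusters was not determined here.

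**Figure D2:**
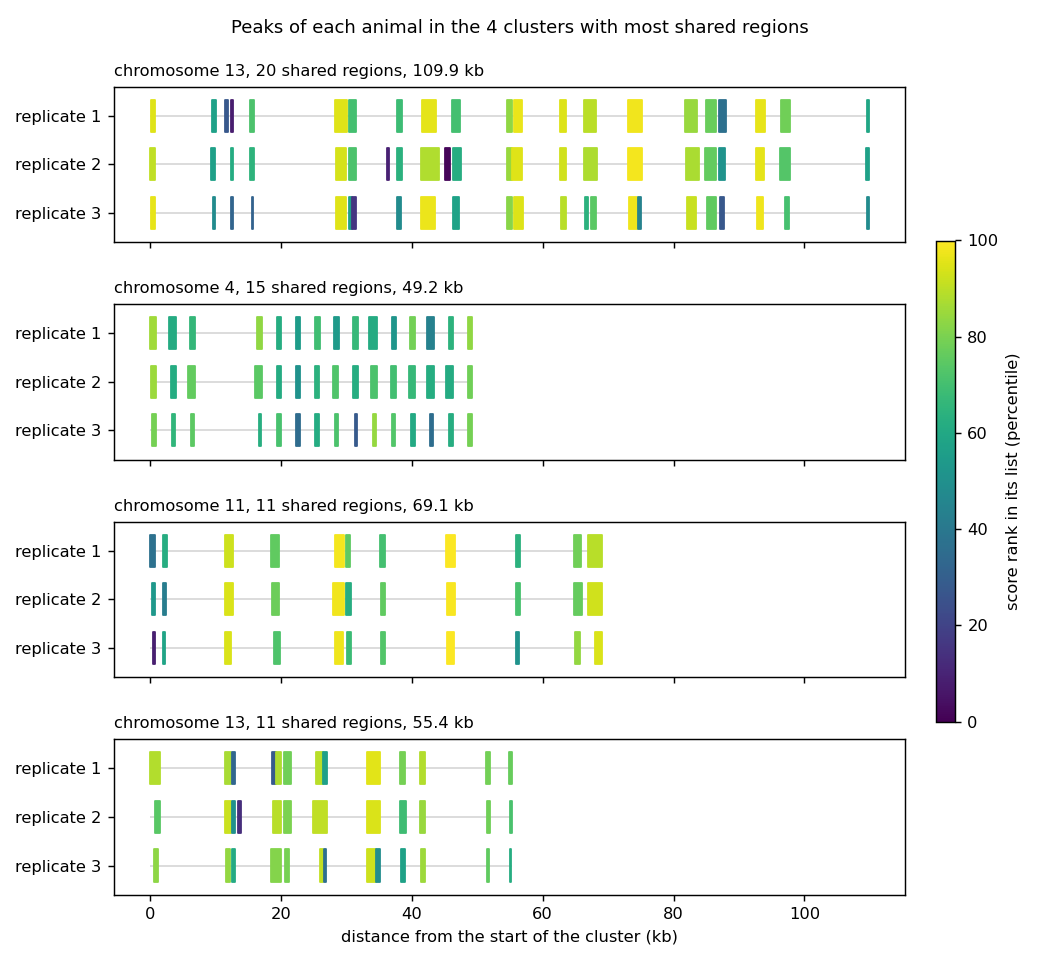
Each panel is 1 of the 4 clusters with most shared regions, drawn to a common scale from the start of the cluster in kb. Bars are the peaks of replicates 1, 2 and 3 at their true width, coloured by score rank in their own list from 0 to 100, and the 15 regions on chromosome 4 stand at nearly even distances.

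The next largest cluster, on chromosome 4 at chr4:88403079-88452301, packed 15 regions into 49.2 kb. Each animal had exactly 15 peaks in it, and no region there was held by only some of the lists. Its spacing was even: of the 14 distances between the centres of neighbouring regions, 13 lay between 2708 and 3164 bp, with a mean of 2936 ± 132 bp (SD over the 13 distances). The remaining distance was 10252 bp, or 3.49 times that mean, and no animal had a peak within its gap. The spread between the quartiles of the centre distances was 0.068 of their median. Among the 104 clusters of 5 or more regions this was the lowest value, the second lowest was 0.077 in a cluster of 6 on chromosome 1, and the cluster of 20 regions on chromosome 13 had 0.991. The even spacing was noticed in the data and was not tested.

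The regions of the chromosome 4 cluster ranged in mean rank from 46.7 to 83.4. They ranked at a median of 64.2, 67.0 and 65.2 in replicates 1, 2 and 3. No region of the 15 was in the highest-scoring 10% of any list, since the highest ranks were 85.9, 84.9 and 84.2. The first region, chr4:88403079-88403973, had scores of 385, 430 and 201. The last, chr4:88451601-88452301, had scores of 340, 321 and 199.7. The lowest ranks were 43.7, 50.4 and 28.1 in replicates 1, 2 and 3, each at a different region. Whether the stretch holds repeated sequence was not examined.

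On chromosome 11, chr11:48601750-48670802 held 11 regions in 69.1 kb, with 11 peaks in each animal. Its strongest region, chr11:48646902-48648304, ranked at 99.3, 98.9 and 99.4, and chr11:48629610-48631330 ranked at 98.3, 97.9 and 97.4. Its first region, chr11:48601750-48602457, ranked at only 36.7, 53.3 and 8.51. The other clusters of 8 regions lay at chr1:72247181-72302595 (55.4 kb), chr3:58924338-58979649 (55.3 kb), chr8:60039318-60090522 (51.2 kb) and chr14:118338548-118401348 (62.8 kb). In the chromosome 1 cluster, ranks were divided by position. The 3 regions after the first ranked between 42.5 and 64.7 in every animal, while the last 4 of the 8 ranked between 93.0 and 99.7. Among them, chr1:72290004-72291318 had scores of 1479, 1658 and 913. The clusters of 8 on chromosomes 3, 8 and 14 had lower mean ranks of 55.8, 58.8 and 59.7 over their members and lists, against 76.9 on chromosome 1. The 5 longest spans included 1 smaller cluster, chr3:52778618-52845899, with 7 regions in 67.3 kb and a mean rank of 46.1.

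The closest packing was found in clusters of 4. The tightest, chr5:64157025-64164270, placed 4 regions in 7.25 kb, or 5.52 regions per 10 kb, against a median of 1.64 over all clusters. Its regions were 548 to 602 bp wide and of modest rank: 58.5, 43.9, 58.7 and 43.6 in replicate 1, 63.4, 33.4, 55.5 and 63.4 in replicate 2, and 32.7, 32.6, 24.03 and 17.7 in replicate 3. Replicate 3 was thus lowest at each of the 4. The next tightest were chr2:148497565-148507565 (4.0 regions per 10 kb), chr19:12076564-12087211 (3.76), chr3:139504986-139516826 (3.38) and chr1:172963649-172975576 (3.35). Shared regions filled 44.6% of the chromosome 2 span and 45.1% of the chromosome 19 span, but only 18.5% of the chromosome 3 span.

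Clusters made of strong regions throughout were few. The highest mean rank, 97.8, belonged to chr11:87256161-87285385. Its 4 regions were 1017 to 1318 bp wide. They scored 1081, 804, 892 and 702 in replicate 1, and 1555, 1266, 1255 and 1245 in replicate 2. In replicate 3 they scored 641, 693, 571 and 628. All 12 ranks lay between 95.2 and 99.5, and the members' mean ranks differed by only 1.48 points, the smallest range of the 358 clusters. The next were chr13:21801725-21827807 (mean rank 94.8, 4 regions) and chr12:55796040-55840277 (93.4, 7 regions). These were followed by chr2:109724098-109758785 (92.0, 4 regions) and chr14:51543600-51576329 (91.1, 4 regions). Neither was equally strong throughout. The third region of the chromosome 2 cluster ranked at 88.3, 80.1 and 84.3 in replicates 1, 2 and 3. In the chromosome 14 cluster, the last region ranked at 73.8, 73.3 and 74.9. The chromosome 13 cluster also held a region of 3533 bp, chr13:21806576-21810108, with ranks of 95.1, 94.1 and 94.6. That region was 1 peak in replicate 1 but 2 peaks in each of replicates 2 and 3, where the weaker peak ranked at 69.6 and 61.3. In the chromosome 12 cluster, ranks ran from 79.5 to 99.3 in replicate 1, from 82.1 to 99.5 in replicate 2 and from 81.9 to 99.5 in replicate 3.

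At the low end, chr9:94569009-94581973 had a mean rank of 33.5. It was not uniformly weak: its second region, chr9:94570078-94571461, ranked at 80.5, 85.3 and 58.4, while its last ranked at 3.40, 7.05 and 7.71. Likewise, chr10:101897680-101914836 (mean rank 37.0) began with a region that ranked at 73.5, 75.4 and 72.5 and held another at 0.852, 10.7 and 4.88, close to the lowest score reported. The other low clusters were chr3:122842294-122872158 (37.2), chr8:98673967-98689251 (37.5) and chr3:67282872-67297501 (37.9).

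Members of 1 cluster were mostly unlike in score. Within a cluster, the highest and lowest mean rank of its members differed by a median of 46.3 points, with quartiles of 33.9 and 57.8 and a range of 1.48 to 84.8. No such value was taken for sets of unclustered regions, so whether this spread is particular to clusters was not tested. Across the 1286 pairs of neighbours inside clusters, the Spearman correlation of mean rank was 0.0865. Across 27810 pairs of neighbours at least 12.5 kb apart it was 0.0425. Both are descriptions across regions that share their libraries, and both are weak. The same region had the highest score in all 3 lists in 231 of 358 clusters (64.5%). No such share was taken for sets of unclustered regions, so whether this agreement is particular to clusters was not tested. Of the clusters of 4, 166 had the same strongest region in all 3 lists. It took an inner place, with a member on either side, in 77 (46.4%). A cluster of 4 has as many inner as outer places, so this share is near an even split.

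Members in the highest-scoring 10% of all 3 lists numbered 158 of 1644 (9.61%), where 11.6% of all shared regions were in that group. The share among members was thus near the background. Of the 358 clusters, 112 held at least 1 such region, 26 held 2 or more, and 2 consisted of such regions only, chr11:87256161-87285385 and chr13:21801725-21827807. No cluster held more than 5. Members below the median score of all 3 lists numbered 193 (11.7%), against 12.3% of all shared regions, and no cluster consisted of these alone.

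The next comparison asked whether regions in clusters differed in peak width from unclustered shared regions. Clustered regions were wider in each animal. Replicate 1 had a median width of 649 bp in clusters and 602 bp outside, replicate 2 had 714 and 623 bp, and replicate 3 had 438 and 402 bp. The difference was 57.5 ± 29.1 bp and the ratio 1.10 ± 0.04 (SD, n = 3 animals), in the same direction in 3 of 3. The exact two-sided sign-flip permutation test over animals gave p = 0.25, which is the smallest value that 3 animals allow. Both distributions overlapped broadly: in replicate 1 the quartiles were 524 and 942 bp in clusters and 479 and 847 bp outside. Of the members, 68 (4.14%) were joined regions wider than 2 kb, against 2.87% of all shared regions and 2.81% of the unclustered. A wider region shortens the gap to its neighbour. With distances measured from centre to centre, the difference was 47.2 bp and again positive in each animal.

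Score ranks differed the other way. In clusters the median rank was 67.8 in replicate 1, 69.5 in replicate 2 and 58.3 in replicate 3, against 69.9, 72.4 and 61.5 for unclustered regions. The difference was -2.74 ± 0.52 points (SD, n = 3 animals), negative in 3 of 3, with p = 0.25 in the same exact permutation test. It was small beside the spread of ranks among clustered regions, whose quartiles in replicate 1 were 49.2 and 83.2. The lower rank was not particular to clusters. Unclustered regions in runs of 3 had median ranks of 66.8, 70.0 and 57.8, and regions in clusters of 4 had 68.2, 69.1 and 58.6. Lone regions ranked above both, at 71.4, 73.8 and 63.3. Median scores were 193, 232 and 115 in clusters and 207, 256 and 124 outside. With the highest-scoring 50% of each list, which rebuilt the regions and left 45 clusters, the difference was -0.70 and -1.11 points in replicates 1 and 2 and 4.65 points in replicate 3, a mean of 0.948.

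Wider peaks have higher scores in these lists, so regions were also compared at like width. Shared regions were divided into 5 equal groups by their peak width in each list. In the 4 groups of wider peaks, clustered regions had the lower median rank in each animal, by 2.49 to 9.47 points. In the narrowest group they had the higher one, by 2.82, 0.382 and 2.49 points. Averaged over the groups by their number of clustered regions, the difference was -4.90 points, against -2.74 without regard to width. The share of shared regions that lay in clusters rose with width, from 2.93% in the narrowest group to 5.77% in the widest in replicate 1. In replicate 2 it rose from 2.81% to 6.05% and in replicate 3 from 3.41% to 5.46%. These shares rest on gaps from end to start, which wider regions shorten, so part of the rise may follow from the rule. Over 5 equal groups by score rank the share in clusters varied less, with its highest value in the second lowest group of each list, at 5.23%, 5.34% and 5.35%. In the highest-scoring group the shares were 4.07%, 3.72% and 4.16%. Apart from the narrowest peaks, clustered regions thus ranked below unclustered regions of like width in all 3 animals. Width at like score was not compared.

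**Figure D3:**
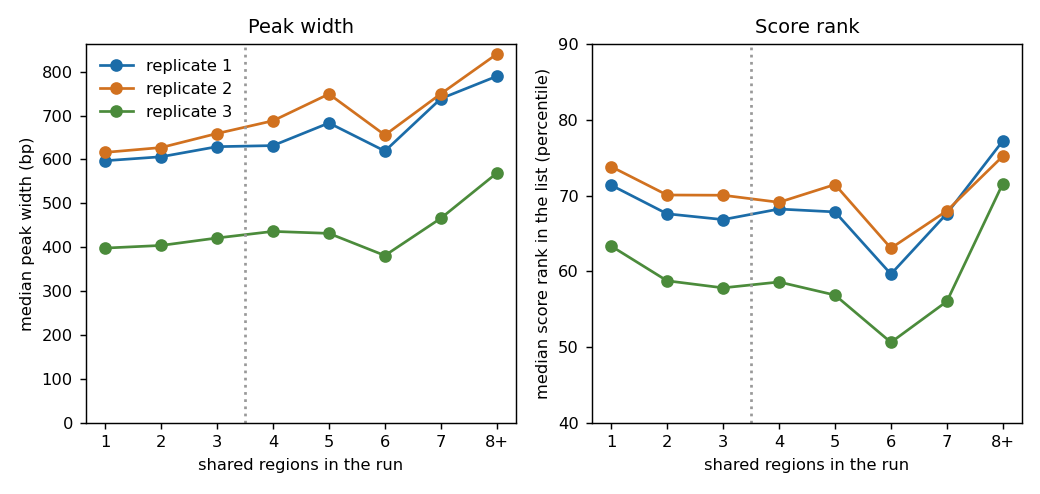
Points are medians over shared regions, by the number of shared regions in their run, for each of the 3 animals. The left panel gives peak width in bp and the right panel score rank as a percentile of the list, on an axis that starts at 40. The dotted line divides unclustered runs from clusters, and width is highest in runs of 8 or more while rank is lowest in runs of 6.

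Width and rank did not change evenly with cluster size. Lone regions had median ranks of 71.4, 73.8 and 63.3 in replicates 1, 2 and 3, and regions in runs of 2 had 67.6, 70.1 and 58.7. The lowest medians, 59.6, 63.0 and 50.6, were those of the 168 regions in clusters of 6. The 106 regions in clusters of 8 or more had 77.2, 75.2 and 71.6, above the lone regions in each animal. Their peak widths of 790, 840 and 569 bp were also the largest. Of these 10 clusters, 4 lay on chromosome 13. In the other 6, with 58 regions, ranks were 67.9, 70.4 and 62.8 and widths were 699, 746 and 504 bp, so the high ranks of large clusters depended on chromosome 13.

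Clusters were unequally placed among the autosomes. Chromosome 3 had 7.71% of its shared regions in clusters (47 clusters), chromosome 13 had 7.42% (28 clusters) and chromosome 14 had 7.25% (30 clusters). At the other end, chromosome 17 had 0.372%, a single cluster of 4 regions among 1074. Chromosome 5 had 1.08% (5 clusters) and chromosome 7 had 1.77% (4 clusters). Chromosomes 1 and 3 together held 96 clusters, or 26.8% of all. Without the window from 21 to 24 Mb, chosen after its values were seen, the share of chromosome 13 was 4.59%. The other autosomes together had 4.46%, with no window taken out of them.

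**Figure D4:**
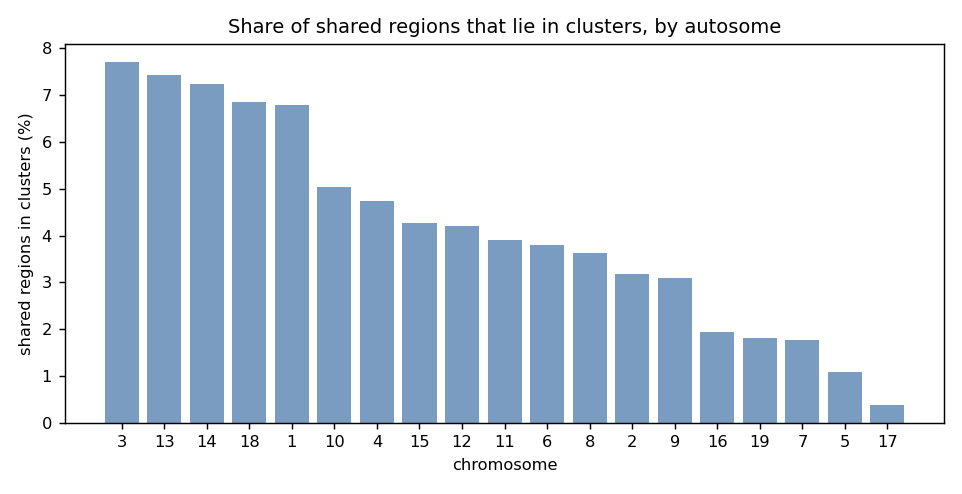
Bars give the percentage of shared regions of each autosome that lie in clusters, in falling order. Values run from 7.71% on chromosome 3 to 0.372% on chromosome 17.

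The share in clusters went with the density of shared regions. Chromosomes 18 and 10 had the most shared regions, 20.3 and 19.5 per Mb, with 6.86% and 5.04% of them in clusters. Chromosome 7 had the fewest, 7.21 per Mb. Across the 19 autosomes the Spearman correlation of density and share was 0.82, given as a description, since both come from the same regions. Density did not order every chromosome: chromosome 5 had 12.4 shared regions per Mb and 1.08% in clusters, while chromosome 9 had only 10.7 per Mb and 3.09%. Chromosome 11, only slightly denser than chromosome 5 at 13.2 per Mb, had 3.90%. Neighbouring gaps under the limit made up 16.2% of gaps on chromosome 5 and 16.8% on chromosome 11. On chromosome 11, however, the largest cluster held 11 regions, and on chromosome 5 none held more than 4.

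Clusters themselves lay far apart as a rule. The distance from 1 cluster to the next on its chromosome had a median of 2.95 Mb over 339 neighbouring pairs. In 93 pairs it was under 1 Mb and in 21 under 100 kb. Of these 21 close pairs, 4 lay on chromosome 1, and 3 each lay on chromosomes 3, 13 and 18. The shortest distance, 12890 bp, exceeded the gap limit only slightly.

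Regions held by only 1 or 2 lists give a readout of the spans that the rule did not choose. In the parts of the spans outside shared regions there were 194, or 23.2 per Mb, against 19.3 per Mb in the rest of the autosomes outside shared regions, a ratio of 1.20. Shared regions, by the rule, were 11.8 times as dense in the spans as elsewhere. The ratio differed by list. It was 1.36 for regions of replicate 1 alone (41 in spans) and 1.41 for those of replicate 2 alone (66). For those of replicate 3 alone it was 0.754, from 14 regions. For regions of 2 lists it was 1.10 with replicates 1 and 2 (55), 1.28 with 2 and 3 (13) and 0.827 with 1 and 3 (5). These ratios pool all autosomes. No region held by only 1 or 2 lists was present in 202 of the 358 spans (56.4%), and no span held more than 3. Peaks of any kind filled 13.9%, 15.1% and 9.11% of the spans in replicates 1, 2 and 3, against 1.48%, 1.65% and 0.811% of the rest. These peaks include those of the shared regions that the rule chose, so this last contrast follows largely from the rule.

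The last comparison asked whether regions in clusters recurred more often in an animal that took no part in finding them. Clusters were built from the lists of 2 animals by the same rule, and the share of their regions with a peak in the animal left out was compared with that of unclustered regions of the same 2 lists. In replicate 1, 92.8% of clustered and 92.5% of unclustered regions recurred. Replicate 2 held 95.8% of clustered and 95.4% of unclustered regions. Replicate 3 held 70.0% and 71.6%. The difference was -0.284 ± 1.16 points (SD, n = 3 animals), with p = 1 in the exact two-sided sign-flip permutation test. It was positive in 2 animals and negative in replicate 3, and smaller than its spread between animals. Whole clusters recurred less evenly. All regions of a cluster were found in replicate 1 for 71.6% of 458 clusters, in replicate 2 for 81.6% of 418, and in replicate 3 for 20.7% of 1094. A cluster counts here only if every region recurs, which lowers these shares below those of single regions. Whether clusters recurred as units was not tested.

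Recurrence instead followed score. In the lowest-scoring of 5 equal groups, ordered by mean rank in the other lists, clustered regions were found in replicates 1, 2 and 3 at 71.6%, 83.9% and 32.5%. Unclustered regions were found at 71.5%, 81.9% and 33.4%. In the highest-scoring group the shares were 100%, 99.7% and 99.9% in clusters. Averaged within these groups, clustered regions recurred more often by 0.854, 0.728 and 0.219 points in replicates 1, 2 and 3, a mean of 0.601 points.

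**Figure D5:**
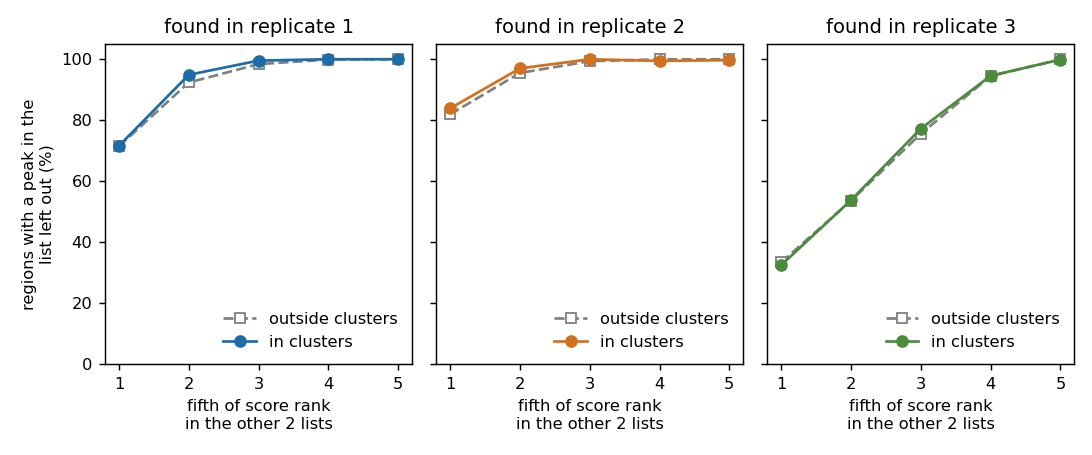
Each panel gives the percentage of regions from the other 2 lists that had a peak in the animal named, by 5 equal groups of score rank. Filled circles are regions in clusters and open squares regions outside, and the curves nearly coincide in all 3 panels.

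The animals ranked clustered regions about as alike as unclustered ones. The Spearman correlation of scores across the 1644 clustered regions was 0.86 for replicates 1 and 2. It was 0.78 for 1 with 3 and 0.765 for 2 with 3. Across the 33838 unclustered regions the values were 0.88, 0.79 and 0.78. These are descriptions across regions, which are not independent replicates.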

How the data were processed

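Accessibility was measured by ATAC-seq in 3 samples of 1 group. Bowtie2 and the build mm9 are named in the submitters' processing notes. The deposited files list peaks, named in the manner of MACS, with a score. The score's unit, the tools' settings and versions, duplicate handling and any Tn5 shift are not stated, so their effect on peak width and number is unknown. Scores ran from 50.0 to 3213 and depend on depth, so they were compared as ranks within a list. The last peak on chromosome 1 ends at 197105542, beyond the last gene of the GRCm38 table provided (195291439), so genes, motifs and sequences were not assigned. Read depth is unknown, and the number of animals limits precision.

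Where a list had several peaks in a region, the highest score and the summed width were used. Clusters named are the 10 with most regions, the 5 densest, the 5 longest and the 5 of highest and of lowest mean rank, and others are said to be chosen after their values were seen. The members, lists and rules were chosen with earlier results of these data known. Tests were exact sign-flip permutation tests over animals. Alternatives were other gap limits, run lengths, overlap, distance and score settings, leaving out each replicate, and settings added after seeing the data (within autosomes, without chromosome 13, against lone regions). Joining and clustering were tested on simulated lists. The work used scipy 1.17.1, numpy 2.4.6, matplotlib 3.10.9 and pandas 2.3.3 in Python 3.11.15.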

Additional observations from a re-analysis of the deposited data

How the results depend on the processing

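The wider median of clustered regions kept its direction under all 13 alternatives run, and the lower score rank under 13 of 14, the exception being the highest-scoring 50% of each list, where the mean difference was 0.948 points and replicate 3 alone was positive. No alternative could pass the threshold with 3 animals, so these counts show direction only. The difference in recurrence in the list left out turned to 0.601 points within groups of like score. The number of clusters was 202 and 573 with gap limits of 10000 and 15000 bp, 1341 with runs of at least 3 and 104 with runs of at least 5, 195 with 50% reciprocal overlap and 45 in the highest-scoring 50%. The corresponding shares of shared regions in clusters were 2.63%, 7.43%, 12.9%, 1.77%, 2.998% and 1.14%, and the share was 3.87% with centre to centre distances. Most of these settings change the count by their own construction. Without 1 replicate there were 418 to 1094 clusters with 5.13% to 10.3% of the regions, the highest without replicate 3. Genes, markers and motifs, also intended, were left out for want of an mm9 annotation in use. No paired analysis was possible because all samples belong to 1 group.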

Other observations

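The X chromosome was left out by the rule. Applied to its 1317 regions held by all 3 animals, the same rule gave 6 clusters with 25 regions (1.90%). This share lies among those of the autosomes with few clusters, between chromosomes 19 (1.82%) and 16 (1.94%). Of the 6, 5 held 4 regions, and the largest, at chrX:132628837-132673877, held 5 in 45.0 kb.

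The most contrasted clusters were singled out after their values were seen. At chr16:90143010-90186948, 6 regions ran from a mean rank of 13.3 to 98.0, and at chr7:16857986-16896025, 5 regions ran from 13.9 to 97.2.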
